A study of Mus musculus with 12 samples.

Results

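Glycolysis and hypoxia response genes were followed across 12 mouse macrophage libraries. The genes were chosen by name: 32 symbols that cover glucose and lactate transport, the steps of glycolysis, the fate of pyruvate, the oxygen-sensing factor HIF with its hydroxylases, and other genes induced by low oxygen. They occupied 33 rows of the deposited count table of 24728 genes, because Aldoa is listed under a second identifier, ENSMUSG00000114515, with 0 to 9 counts a library. Of the 32 genes, 31 passed the filter on low counts that left 13414 genes to be tested. Adm, which encodes the peptide hormone adrenomedullin, had 0 to 10 counts a library and was not tested. Ddit4, an inhibitor of mTORC1 signalling, was tested but had only 0 to 29 counts, so its fold changes are not described and it is left out of the plots.

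The 12 libraries, of 17071673 to 21689624 counts each, come from dTomato+ macrophages derived from bone marrow and sorted after ex vivo assays with material of dissociated mouse brain tumors. By their treatment label they form 4 groups of 3 libraries: Control, Full Tumor, Tumor without Myelin and Myelin Alone. Every group has 1 library of each mn number, 957, 958 and 016, an identifier that the labels leave unexplained. They are also silent on the treatment of Control, the length of exposure, the mouse strain and age, and the tumor model behind this material. The series text names 2 glioma models driven by PDGFB in Nestin+ progenitors, with loss of Ink4a/Arf or knockdown of p53. Since no label states that libraries of a group are separate animals, the p-values below measure only the spread between these libraries, which may be technical. A lower level in bulk RNA can come from fewer cells that express a gene or from less RNA per cell, and these cannot be told apart.

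Glycolysis splits glucose into pyruvate and yields ATP without oxygen, and lactate dehydrogenase and a lactate exporter let it run at a high rate. Macrophages draw on it when they are activated. HIF-1α, encoded by Hif1a, is marked for destruction by prolyl hydroxylases when oxygen is present, and in low oxygen it accumulates and drives most glycolytic genes together with its own hydroxylases. In macrophages HIF-1α also responds to inflammatory signals, so these genes are no pure readout of oxygen.

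HIF binds the core letters ACGTG or GCGTG, and promoters are shown here for some of the members whose levels are described below. RefSeq promoters (GRCm38.p6, from 250 bases before to 50 after an annotated start) were found for 30 of the 32 genes, all but Ndrg1 and Bnip3l. ACGTG or GCGTG on either strand occurred in 35 of 42 member windows (83.3%), in 61.1% of the windows of tested genes and in 43.8% of all windows. By gene, these shares were 93.3% of 30 members, 67.1% of tested genes and 46.7% of all genes. Member windows were also richer in G and C, with a median of 65%, against 60.3% for tested genes and 52.7% for all. The full palindrome CACGTG, which contains ACGTG on both strands and is also read by other factors, was no more common among members (9.52% of windows) than among tested genes (10.1%). Each sequence below runs 5′ to 3′ on the strand of its gene, with the searched letters of either strand in capitals. The windows are Pfkfb3, chr2:11502041-11502340, minus strand, at an inner start; Bnip3, chr7:138909457-138909756, minus strand; P4ha1, chr10:59323046-59323345, plus strand; P4ha2, chr11:54100674-54100973, plus strand; Aldoc, chr11:78322823-78323122, plus strand; and Pgam1, chr19:41911621-41911920, plus strand.
Pfkfb3: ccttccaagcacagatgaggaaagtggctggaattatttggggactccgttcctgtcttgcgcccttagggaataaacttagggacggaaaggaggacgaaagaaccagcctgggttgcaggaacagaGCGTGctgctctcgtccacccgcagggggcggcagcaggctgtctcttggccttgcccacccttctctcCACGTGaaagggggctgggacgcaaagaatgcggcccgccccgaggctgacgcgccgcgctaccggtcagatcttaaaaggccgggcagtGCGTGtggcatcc
Bnip3: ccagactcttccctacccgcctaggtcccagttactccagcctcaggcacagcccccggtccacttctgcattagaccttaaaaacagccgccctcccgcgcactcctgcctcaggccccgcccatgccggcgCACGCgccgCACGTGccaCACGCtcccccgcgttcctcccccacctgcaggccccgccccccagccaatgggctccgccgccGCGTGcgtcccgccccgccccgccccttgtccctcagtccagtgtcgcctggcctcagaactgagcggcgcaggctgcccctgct
P4ha1: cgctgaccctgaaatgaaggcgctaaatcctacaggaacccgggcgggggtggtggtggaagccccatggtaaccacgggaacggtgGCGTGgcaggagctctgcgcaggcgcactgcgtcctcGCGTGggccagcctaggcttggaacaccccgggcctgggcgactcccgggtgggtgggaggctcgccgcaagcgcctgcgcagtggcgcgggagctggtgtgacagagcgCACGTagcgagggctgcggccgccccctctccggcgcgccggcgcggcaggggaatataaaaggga
P4ha2: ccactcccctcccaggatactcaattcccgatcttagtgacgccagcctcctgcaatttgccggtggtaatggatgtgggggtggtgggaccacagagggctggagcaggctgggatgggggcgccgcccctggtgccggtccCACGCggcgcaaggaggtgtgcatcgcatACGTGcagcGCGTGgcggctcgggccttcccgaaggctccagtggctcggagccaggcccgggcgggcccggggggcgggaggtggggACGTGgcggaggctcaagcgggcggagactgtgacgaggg
Aldoc: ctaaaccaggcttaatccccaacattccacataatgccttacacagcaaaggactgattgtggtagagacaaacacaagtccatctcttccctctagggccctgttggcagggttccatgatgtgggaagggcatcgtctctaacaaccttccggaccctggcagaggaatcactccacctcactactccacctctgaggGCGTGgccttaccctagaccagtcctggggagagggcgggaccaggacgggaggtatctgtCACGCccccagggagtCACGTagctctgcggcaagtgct
Pgam1: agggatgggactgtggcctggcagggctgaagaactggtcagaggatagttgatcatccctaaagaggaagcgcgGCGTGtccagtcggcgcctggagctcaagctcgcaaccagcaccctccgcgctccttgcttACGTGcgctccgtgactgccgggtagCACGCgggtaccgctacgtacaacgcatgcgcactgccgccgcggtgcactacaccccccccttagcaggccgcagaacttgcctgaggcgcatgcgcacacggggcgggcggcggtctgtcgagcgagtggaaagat
The Bnip3 window holds 5 matches, those of Pfkfb3 and P4ha2 hold 4, and those of P4ha1, Aldoc and Pgam1 hold 3. A palindrome counts as 2 matches. Pfkfb3 and Aldoc each have another listed window, at chr2:11553880-11554179 and chr11:78323948-78324247, with 1 match each. The windows shown are examples. Windows not shown held from 0 matches, as in Gpi1 and Tpi1, to 7 in a window of Ldha. These matches describe the letters only.

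Levels between genes are compared as CPM (counts scaled to the library total) per kb of exon, with exon lengths from GENCODE M21, which may differ from the annotation the authors counted on. The lengths join every annotated exon of a gene and can exceed a single transcript, which lowers the level per kb. Gapdh had 4133 bp of exon but 1943 different 50-base stretches in its coding transcripts, and Eno1 had 5379 bp and 2884. The order of genes is therefore approximate. The fructose-bisphosphate aldolase Aldoa was highest, at a mean of 1050 CPM per kb over the 12 libraries (928 to 1190). Ldha, which turns pyruvate into lactate, followed at 562 (450 to 734), then the pyruvate kinase gene Pkm at 532 (382 to 746) and the enolase Eno1 at 437 (336 to 543). The ranges of Ldha, Pkm and Eno1 overlap, so their order is not settled over these libraries.

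Among the 3 hexokinases, which trap glucose as glucose 6-phosphate, Hk3 had by far the highest level at 161 CPM per kb (106 to 251). Hk2 reached 10.8 (8.21 to 13.2) and Hk1 7.58 (5.34 to 11.1), with overlapping ranges. Of the prolyl hydroxylases, Egln1 stood at 6.07 CPM per kb (3.39 to 10.0) and Egln3 at 2.0 (0.845 to 4.62), while Hif1a stood at 15.3 (9.02 to 20.4). Gapdh, a gene that often ranks among the highest in mammalian cells, was only the 16th of the 31 tested members at 21.5 CPM per kb (15.4 to 29.8). Of its 50-base stretches, 58.4% also occur in exons of other genes, 222 genes in all; how the counting treated such reads is not given, and the part of this in its low level was not tested. The same share was 68% for Pgk1, 59.1% for Bnip3, 49.5% for Eno1 and 41.5% for Pgam1, so the levels of these genes are uncertain too.

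**Figure D1:**
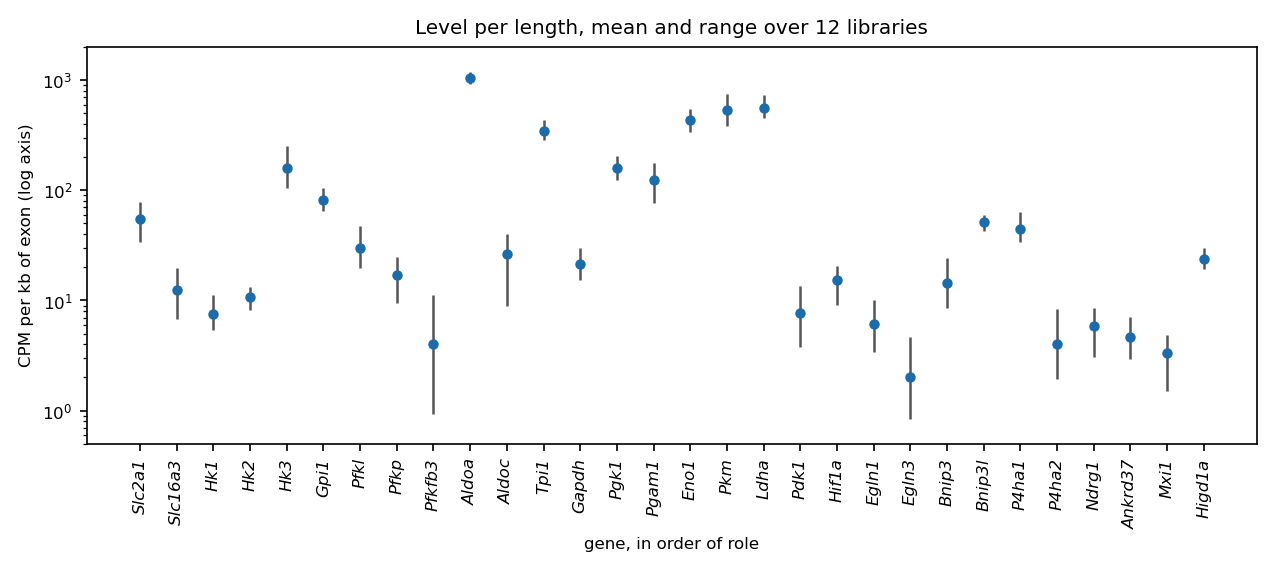
Mean level (points) and range over the 12 libraries (lines) of 30 members, in CPM per kb of exon on a log axis, in order of role. Aldoa, Ldha, Pkm, Eno1 and Tpi1 lie highest, Hk3 lies well above Hk1 and Hk2, and Egln3 is lowest.

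Which number a library carried went with larger differences in these genes than its group did. With the number as a term, edgeR's quasi-likelihood test called 25 of 31 members between the 3 numbers (adjusted p under 0.05; 80.6%), where 34.9% of all tested genes were called. The number accounted for a median of 56.7% of a member's variance in log2 CPM and the group for 16.2%, against 42.6% and 17.1% over all tested genes, and the number had the larger share in 25 of 31 members. In number 016, 28 of 31 members were higher than the mean of the other numbers, by a median of 0.45 on the log2 scale. Over all tested genes this median was 0.00 and 50.2% were higher. The members share libraries and vary together, so they are not independent counts.

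The direction was shared across roles. The glucose transporter Slc2a1 averaged 184 CPM in 957 (155 to 217), 143 in 958 (120 to 154) and 254 in 016 (231 to 274), with no overlap between 016 and the others. Pkm showed the same order with 2460 (2350 to 2700), 2020 (1910 to 2100) and 3510 CPM (3240 to 3730), and the number took 95.5% of its variance (edgeR adjusted p = 4.86e-05). Pfkfb3, whose product makes the activator of phosphofructokinase, had the widest spread, a range of 1.54 in mean log2 CPM: 24.5 CPM in 957 (15.9 to 34.7), 17.3 in 958 (7.08 to 22.8) and 49.5 in 016 (35.0 to 83.9). All 3 genes had their highest libraries in 016.

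Wide ranges were also seen for Pdk1 (1.21), the kinase that closes pyruvate dehydrogenase, for Egln3 (1.05), for P4ha2 (1.05), a collagen prolyl hydroxylase, and for the phosphofructokinase Pfkp (0.87). Pdk1 averaged 51.9 CPM in 957, 38.5 in 958 and 89.4 in 016. Mxi1, a MAX-binding antagonist of MYC, went the other way with a range of 1.24: 25 CPM in 957 (20.8 to 28.2), 30.1 in 958 (25.5 to 33.3) and 12.8 in 016 (10.3 to 15.4; edgeR adjusted p = 0.000483). Egln1 and Hk2 were the other members lower in 016, and of these Egln1 was called (adjusted p = 0.0404) and Hk2 was not (0.568). Aldoa, Bnip3l, Hk2, Ankrd37, Higd1a and Ddit4 were the 6 members not called.

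This count was lower with libraries left out, which also lowers the power. It fell to 14 without the Tumor without Myelin 016 library, 15 without the Full Tumor 016 library, 13 without all of 958 and 3 without all of 016. The share of all tested genes called in these smaller fits is not given here, so the falls are no result about the members. Neutrophil markers summed to 16.4 to 285 CPM in 016, 10.4 to 76.9 in 957 and 25.4 to 114 in 958. The 016 libraries of Control and Myelin Alone had the highest sums, 285 and 138 CPM. Full Tumor 016 (16.4 CPM), however, was below Full Tumor 957 (76.9) and 958 (90.6). Macrophage markers summed to 14700 to 19600 CPM in 016, 17000 to 20100 in 957 and 18600 to 23400 in 958, lowest in 016 in each group. The part of these markers in the difference was not tested.

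**Figure D2:**
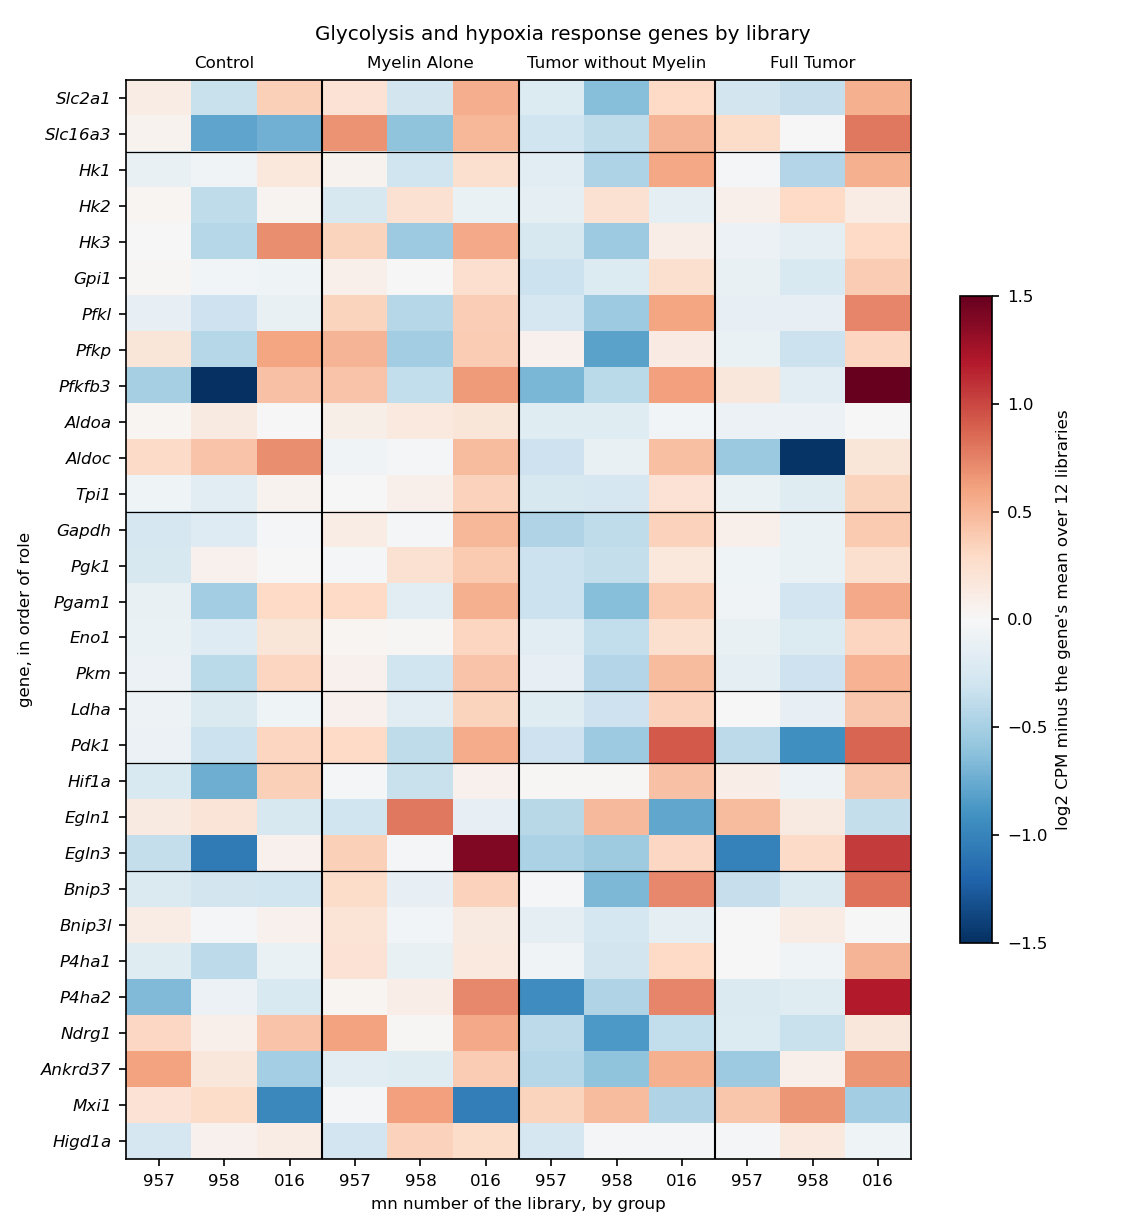
Level of 30 members (rows, in order of role, lines between roles) in the 12 libraries (columns, by group and mn number), as log2 CPM minus the mean of the gene over the libraries; colours stop at 1.5 in either direction. The 016 columns are mostly red in each group, and Mxi1 is blue in them.

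Between the 4 groups, the main test, edgeR with group as the only term, called 0 of 31 members in each of 7 comparisons: Full Tumor, Tumor without Myelin and Myelin Alone against Control, Full Tumor against Tumor without Myelin, tumor material pooled, myelin pooled, and the interaction of the latter factors. At an unadjusted p under 0.05 it had 2, 1, 0, 0, 2, 0 and 0 members in that order, where 4.17%, 4.09%, 2.08%, 1.2%, 5.78%, 2.39% and 1.14% of all tested genes passed. Over all tested genes it called 0% in 6 of these comparisons and 0.0745% for tumor material pooled. DESeq2 with group only called 1 member, Ndrg1, for tumor material pooled, and limma-voom called 0. As the mn numbers pair the libraries, values with the number as a block are given in what follows, each as log2 fold change ± SE, and adjusted p-values are over all 13414 genes.

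Myelin Alone against Control asks what myelin, the lipid-rich sheath of axons, did to the macrophages without tumor. With the block, 27 of 31 members were higher in Myelin Alone, by a median of 0.13 on the log2 scale, where 51.9% of all tested genes were higher and their median was 0.01. None passed the adjusted test in edgeR, against 0.0373% of all genes. Without adjustment (p under 0.05) 9 members passed, all higher (29%), against 6.04% of all genes: Slc16a3, Pfkfb3, Tpi1, Gapdh, Pgk1, Pgam1, Eno1, Egln3 and P4ha1. DESeq2 and limma-voom with the block called 0.

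Pgam1, the phosphoglycerate mutase, was measured at 217, 163 and 288 CPM in Control against 290, 209 and 341 in Myelin Alone for 957, 958 and 016. The groups overlapped, but within each number Myelin Alone was the higher library. Its log2 fold change was 0.34 ± 0.10 (edgeR adjusted p = 0.591).

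Gapdh, the dehydrogenase of lower glycolysis, stood at 72.9, 76.2 and 86.2 CPM in Control against 93.7, 85.9 and 123 in Myelin Alone, higher in each number with 0.34 ± 0.13 (adjusted p = 0.698). Pgk1, the first ATP-yielding step, stood at 298, 368 and 351 against 348, 411 and 459 CPM, again higher in each number (0.25 ± 0.11, adjusted p = 0.792). Eno1 had 2160, 2040 and 2650 against 2380, 2360 and 2910 CPM (0.16 ± 0.07, adjusted p = 0.811). For all 3 enzymes the groups overlapped, and numbers differed by more than the groups.

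P4ha2 and Bnip3 were the 2 members with no overlap between these groups, both higher in Myelin Alone; over all tested genes, 3.21% were higher and 2.57% lower without overlap. P4ha2 had 14.5, 21.5 and 19.6 CPM in Control and 23.4, 24.6 and 37.7 in Myelin Alone (0.57 ± 0.26, edgeR adjusted p = 0.842). Bnip3, a mitophagy receptor, had 26.7, 25.6 and 25.3 against 37.6, 28.6 and 39.3 CPM (0.41 ± 0.25, adjusted p = 0.920). In both genes the 016 library was the highest of Myelin Alone. Egln3 gave the largest member value, 1.00 ± 0.37 (adjusted p = 0.698), at 3.68, 2.25 and 4.91 against 6.01, 4.64 and 12.3 CPM.

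Summed over 15 glycolytic enzymes, the level was 13060 ± 1400 CPM in Control (SD, n = 3) and 14370 ± 2000 in Myelin Alone. Against the Control library of the same number, the sum was 1.1 times as high in 957, 1.06 times in 958 and 1.13 times in 016. The step up was thus seen in each number but was smaller than the spread between numbers.

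Tumor without Myelin against Control asks what tumor material freed of myelin did. Ndrg1, a stress gene downstream of HIF and other regulators, fell, and it was the only member of 31 called with the block (0.745% of all tested genes). There were 7 members with an unadjusted p under 0.05 (22.6%, against 9.48% of all genes): Hif1a was higher, and Hk3, Pfkp, Aldoa, Aldoc, Bnip3l and Ndrg1 were lower. The members as a list showed no lean, with 14 of 31 higher and a median of −0.02. That median was 0.05 without number 957 and −0.18 without number 016.

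Ndrg1 (ENSMUSG00000005125, mm10 chr15:66929318-66969640) was measured at 46.0, 39.0 and 49.8 CPM in Control (957, 958, 016) and at 28.2, 20.4 and 28.7 in Tumor without Myelin. Every Tumor without Myelin library lay below every Control library. The means were 45.0 ± 5.47 and 25.8 ± 4.65 CPM (SD, n = 3), and the log2 fold change was −0.81 ± 0.14 (edgeR adjusted p = 0.0243 with the block, 0.728 with group only). With 1 library fewer the size stayed between −0.76 and −0.86, but the adjusted p rose to 0.0991 without Control 957, 0.119 without Control 958, and 0.0947, 0.138 and 0.116 without the Tumor without Myelin libraries 957, 958 and 016. Without whole numbers it was 0.223 (957), 0.297 (958) and 0.128 (016). Other genes cover 8.43% of the Ndrg1 exons and 12.3% of its 50-base stretches recur elsewhere, so some of its reads could belong to them.

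Aldoa and Bnip3l were the other 2 members without overlap here, both lower; over all tested genes, 4.25% were higher and 3.44% lower without overlap. Aldoa stood at 3120, 3370 and 3050 CPM in Control against 2700, 2700 and 2980 in Tumor without Myelin (−0.19 ± 0.07, edgeR adjusted p = 0.329). Bnip3l, a mitophagy receptor related to Bnip3, stood at 215, 194 and 207 against 179, 166 and 179 CPM (−0.23 ± 0.09, adjusted p = 0.445). Both differences are small beside that of Ndrg1.

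Hif1a itself leaned upward, at 75.5, 53.2 and 113 CPM in Control against 89.4, 89.2 and 120 in Tumor without Myelin (0.35 ± 0.14, edgeR adjusted p = 0.441). Its groups overlapped. Of the 15 enzymes, the sum was 0.912 times that of the same-number Control in 957 and 0.882 times in 958, but 1.07 times in 016, with a group mean of 12550 ± 2680 CPM.

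Full Tumor against Control asks what the whole tumor material did. With the block, 22 of 31 members were higher, by a median of 0.08, and 0 passed the adjusted test in edgeR (0.813% of all genes did). At an unadjusted p under 0.05, 6 members passed (19.4%, against 9.83% of all genes): Slc16a3, Pfkfb3, Hif1a and P4ha1 were higher, Aldoc and Ndrg1 lower. The median was 0.15 without Control 957 and 0.03 without all of 016. Scaling by library totals alone moved the median of all tested genes from 0.01 to −0.05 and that of the members alike, to 0.02.

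Aldoc, an aldolase best known from brain, gave the lowest values. The gene (ENSMUSG00000017390, mm10 chr11:78322968-78327781) stood at 98.8, 109 and 131 CPM in Control, and Full Tumor had 55.1, 29 and 91.3, with every Full Tumor library below every Control library. The log2 fold change was −1.04 ± 0.22 with an edgeR adjusted p of 0.0568, just over the threshold. DESeq2 (0.000118), limma-voom (0.0291), edgeR without the filter (0.0051), edgeR without Full Tumor 016 (0.0493) and edgeR without all of 016 (0.0392) put it under the threshold, and the other settings with the block did not, with adjusted p from 0.0555 to 0.389. Within the numbers the difference was −0.84 in 957, −1.90 in 958 and −0.52 in 016, and without all of 958 the fold change was −0.69 (adjusted p = 0.305). Myelin Alone (77.8, 79.8 and 112 CPM) and Tumor without Myelin (65.0, 74.8 and 110 CPM) lay between these groups in their means, 89.8 ± 19.1 and 83.4 ± 23.8 CPM against 113 ± 16.6 in Control and 58.5 ± 31.3 in Full Tumor.

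Pfkfb3 (ENSMUSG00000026773, mm10 chr2:11471433-11554077) stood at 18.3, 7.08 and 35.0 CPM in Control, and Full Tumor had 28.9, 22.8 and 83.9, higher in each number but overlapping between groups. Its log2 fold change of 1.17 ± 0.30 had an edgeR adjusted p of 0.131, and of 0.00494 in DESeq2 and 0.0317 without the filter. Slc16a3, the lactate exporter MCT4, stood at 64.0, 35.8 and 37.3 against 74.9, 62.1 and 106 CPM (0.81 ± 0.26, adjusted p = 0.259 in edgeR and 0.0425 in DESeq2). P4ha1, a collagen prolyl hydroxylase, stood at 162, 140 and 171 against 181, 176 and 260 CPM with no overlap (0.37 ± 0.11, adjusted p = 0.229).

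Hk2 was the other member above Control without overlap, at 67.1, 78.7 and 68.8 CPM against 65.5, 49.0 and 65.8 (0.24 ± 0.16, edgeR adjusted p = 0.717). With Aldoc below, this makes 2 members above and 1 below, where 4.59% and 3.51% of all tested genes were above and below. The enzyme sum averaged 13460 ± 2600 CPM, at 0.972, 0.976 and 1.12 times the same-number Control in 957, 958 and 016.

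Group means are also given for some other members, and in some of these genes the numbers went opposite ways. Ldha averaged 1690 ± 101 CPM in Control, 1960 ± 337 in Myelin Alone, 1820 ± 459 in Tumor without Myelin and 1990 ± 393 in Full Tumor (SD, n = 3), and Tpi1, the triose phosphate isomerase, 908 ± 68.8, 1040 ± 139, 894 ± 173 and 965 ± 195. The phosphofructokinase gene Pfkl averaged 169 ± 12.9, 210 ± 58.9, 194 ± 83.3 and 223 ± 82.2 CPM. Higd1a, a mitochondrial protein of the hypoxia response, averaged 71.0 ± 9.4, 78.9 ± 17.6, 66.9 ± 5.65 and 73.1 ± 5.9 CPM, and Ankrd37, a HIF target of unclear function, 7.63 ± 2.79, 7.06 ± 1.62, 6.52 ± 2.99 and 7.61 ± 3.1 CPM. In 016 Pfkl was at 288 CPM in Tumor without Myelin and 318 in Full Tumor against 176 in Control, and in 958 at 131 and 176 against 154. Ankrd37 was above its Control in 016, by 1.03 and 1.16 on the log2 scale in those groups, and below it in 957, by −1.01 and −1.13.

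**Figure D3:**
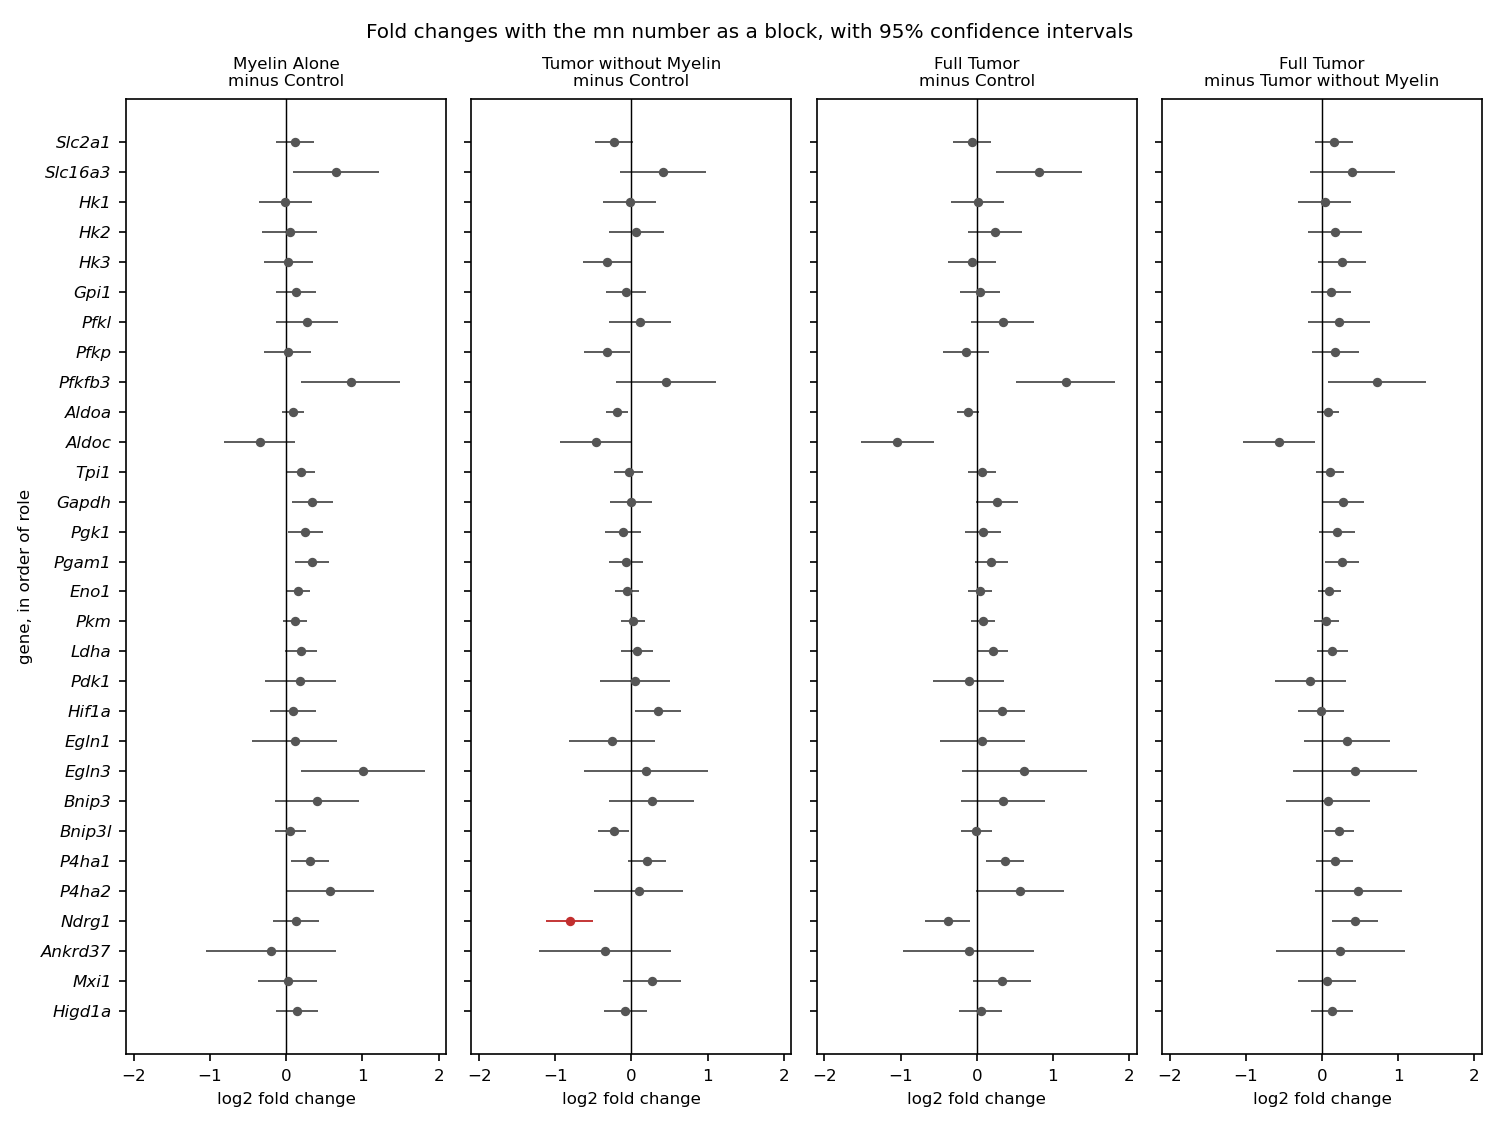
Log2 fold changes of 30 members in 4 comparisons with the mn number as a block; points are estimates and lines are 95% confidence intervals not adjusted for multiple genes. Ndrg1 in Tumor without Myelin, in red, is the only point with an adjusted p under 0.05, and in the first and last panels most points lie right of 0.

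Full Tumor against Tumor without Myelin asks what myelin added when tumor was present. The step that removed myelin may have changed the material in other ways, which cannot be told apart from myelin here. With the block, 28 of 31 members were higher in Full Tumor, by a median of 0.16, where 50.7% of all tested genes were higher. No member and 0% of all genes passed the adjusted test in edgeR, and DESeq2 and limma-voom with the block called 0 members. At an unadjusted p under 0.05, 5 members passed (16.1%, against 3.88% of all genes): Pfkfb3, Pgam1, Bnip3l and Ndrg1 were higher, Aldoc lower. Ndrg1 (29.6 to 41.8 against 20.4 to 28.7 CPM) and Bnip3l (197 to 214 against 166 to 179 CPM) did not overlap; over all genes 2.58% were above and 2.45% below. Ndrg1 gave 0.43 ± 0.14 and Bnip3l 0.22 ± 0.09 (edgeR adjusted p = 1 for both).

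Both myelin contrasts were then pooled, Myelin Alone and Full Tumor against Control and Tumor without Myelin; they are built from all 12 libraries and repeat the comparisons above. In this fit 29 of 31 members were higher with myelin, by a median of 0.14, and 0 passed the adjusted test in edgeR (0.112% of all genes did). Without adjustment 13 members passed, 12 higher and 1 lower (41.9%, against 7.13% of all genes). Pgam1 had the lowest adjusted p, 0.238 (0.30 ± 0.07; 0.0209 in DESeq2), and Pfkfb3 the largest value, 0.78 ± 0.21 (0.314; 0.025 in DESeq2). Aldoc was the lower one, with −0.46 ± 0.15 (0.474). Of 16 further glycolysis genes that are not members, 8 were higher in this fit, with a median of −0.03, and 5 were higher in Full Tumor than in Tumor without Myelin, with a median of −0.10. Of 33 further HIF targets 18 and 17 were higher, with medians of 0.06 and 0.01.

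Within the numbers, the median member difference with myelin was 0.13 in 957, 0.18 in 958 and 0.21 in 016, and 22 of 31 members were higher in all 3 numbers, where 15.9% of all tested genes were. Over 20 settings with the block, that is, other tools, scalings and left-out libraries, the pooled median stayed between 0.12 and 0.17, with 25 to 30 members higher. Over 21 settings with group only it ranged more widely, from 0.08 to 0.26, with 22 to 29 higher. Full Tumor against Tumor without Myelin turned to a median of −0.05, with 12 of 31 higher, with group only and without Full Tumor 016. Most members thus leaned the same way in the pooled fits, though edgeR called none of them after adjustment. The interaction, the myelin difference with tumor less that without, was called for 0 members and 0% of all genes in edgeR, with 0 members at an unadjusted p under 0.05 against 2.93% of all genes, and for 0 members by DESeq2 and limma-voom.

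Tumor material pooled, Tumor without Myelin and Full Tumor against Control and Myelin Alone, gave the same call, Ndrg1, as the only 1 of 31 members with the block (2.25% of all tested genes were called). Ndrg1 fell by 0.66 ± 0.10 on the log2 scale (edgeR adjusted p = 0.00512; 0.192 with group only; 0.0119 in DESeq2 with group only). It was lower with tumor material in each number, by −0.75, −0.64 and −0.60 in 957, 958 and 016, and the call was lost without number 957 (0.0913) or 958 (0.101). Aldoa, at −0.19 ± 0.05, had an adjusted p of 0.0589, and was under the threshold in DESeq2 (0.0155), limma-voom (0.0333), with library totals (0.0352) and without the filter (0.0461). At an unadjusted p under 0.05, 8 members passed (25.8%, against 12.7% of all genes): Hif1a and Mxi1 were higher, and Slc2a1, Pfkp, Aldoa, Aldoc, Bnip3l and Ndrg1 lower.

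Slc2a1 had 203, 148 and 240 CPM in Control and 217, 154 and 274 in Myelin Alone. Tumor without Myelin had 163, 120 and 231 CPM, Full Tumor 155, 148 and 271, giving −0.20 ± 0.08 (edgeR adjusted p = 0.299). In 016 it hardly differed with tumor material (−0.03), in 957 it was lower (−0.40). The list median with tumor material was −0.08, and it turned to 0.04 without number 957.

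**Figure D4:**
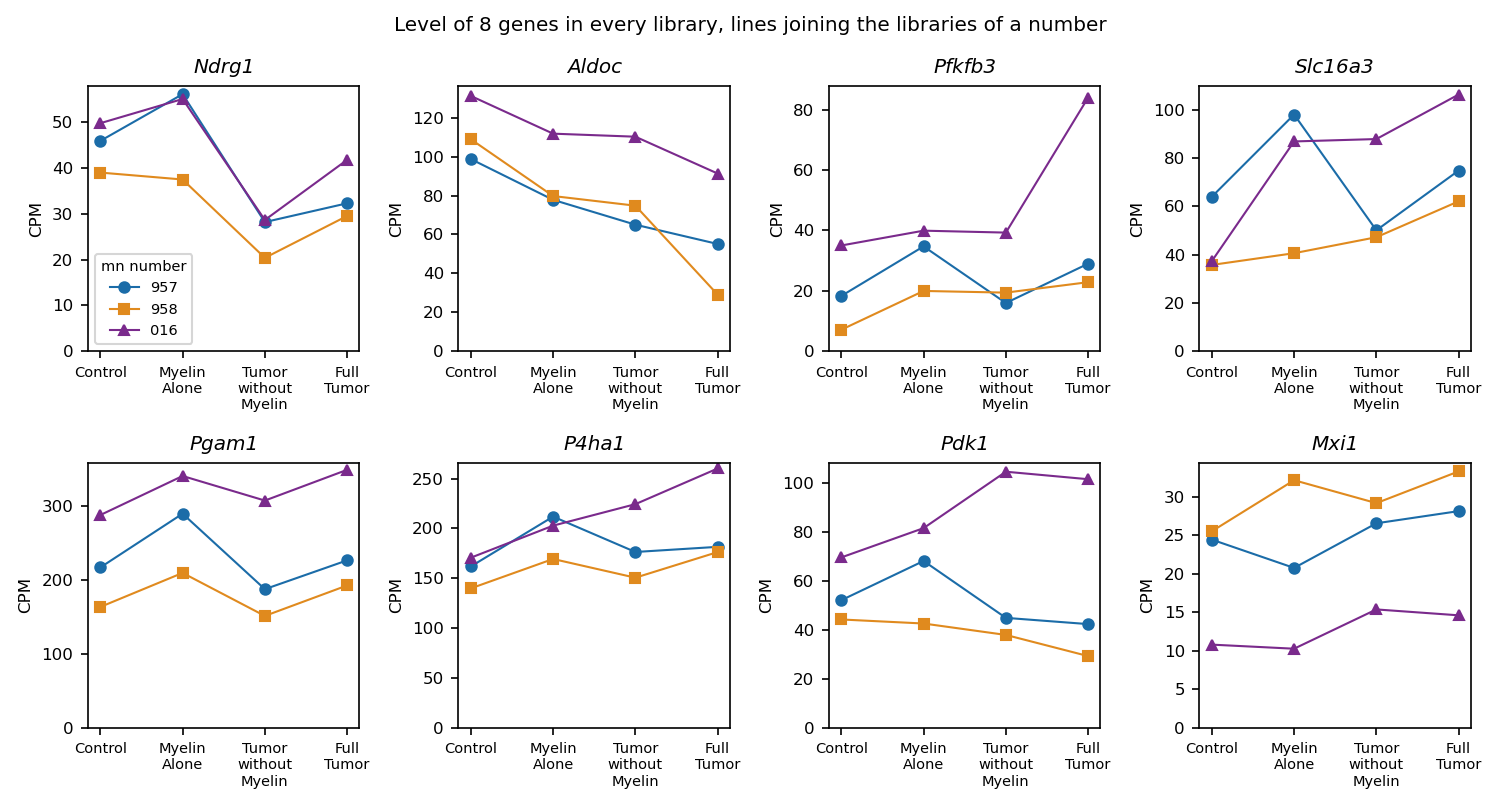
CPM of 8 members in each of the 12 libraries, by group, with lines joining the libraries of an mn number; each panel starts at 0. Ndrg1 drops in Tumor without Myelin in all 3 numbers, Aldoc is lowest in Full Tumor, and Mxi1 is lowest in 016 throughout.

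The response to tumor material differed in direction between numbers for many members. The median member difference was −0.23 in 957 and −0.14 in 958 but 0.12 in 016; scaled by library totals alone these were −0.25, −0.22 and 0.10. Against Control alone, the medians in 957, 958 and 016 were −0.20, −0.18 and 0.16 for Tumor without Myelin. For Full Tumor they were −0.01, 0.09 and 0.28, so the fall in 957 and 958 was not seen there. Of 31 members, 14 were higher with tumor material in 016 and lower in both other numbers, against 12.5% of all tested genes, and 0 showed the reverse, against 10.2%. This comparison was added after the data had been seen. An edgeR term for the tumor difference in 016 less that in the others gave 0 adjusted calls among members (0.701% of all genes), with a lowest adjusted p of 0.13; 14 members had an unadjusted p under 0.05, all higher in 016 (45.2%, against 10.8% of all genes).

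Pdk1 had the lowest adjusted p of these, with differences of −0.45 in 957, −0.38 in 958 and 0.45 in 016. It stood at 52.1, 44.3 and 69.7 CPM in Control against 68.2, 42.6 and 81.6 in Myelin Alone. With tumor material it stood at 44.9, 37.9 and 105 CPM (Tumor without Myelin) or 42.4, 29.3 and 102 CPM (Full Tumor). The 016 libraries with tumor material are the 2 highest and the 957 and 958 libraries with it are below their Control. The difference was 0.86 ± 0.22 (edgeR adjusted p = 0.130).

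Bnip3 gave −0.21, −0.24 and 0.74 in the 3 numbers, a difference of 0.95 ± 0.27 (edgeR adjusted p = 0.202), and P4ha2 gave −0.26, −0.32 and 0.72 (0.995 ± 0.27, adjusted p = 0.159). Gpi1, the glucose phosphate isomerase, gave −0.26, −0.20 and 0.21 (0.44 ± 0.12, adjusted p = 0.156), and Hk1 −0.08, −0.28 and 0.36 (0.54 ± 0.17, adjusted p = 0.250). Ndrg1 did not follow this split and was lower with tumor material in all 3 numbers, with a difference of 0.11 ± 0.22 (adjusted p = 0.928).

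Microglial markers also differed between these libraries. The 10 of 11 listed markers in the table (Sall1 was the one not in it) summed to 545, 655 and 406 CPM in Control (957, 958, 016) and 686, 682 and 654 in Myelin Alone. With tumor material the sum was 837, 861 and 1140 CPM (Tumor without Myelin) or 739, 853 and 971 CPM (Full Tumor), above Control in every number and most so in 016. Tmem119, which marks resident microglia, stood at 28.4 CPM in Tumor without Myelin 016 and 14.8 in Full Tumor 016, and at 0.604 to 6.06 in the other 10 libraries. Olfml3 was lowest in 016 among the libraries with tumor material (188 and 161 CPM, against 255 to 355 in 957 and 958), though above its Control there too (89.3 CPM). P2ry12 was at most 3.58 CPM and Siglech at most 0.729. Their part in the split between numbers was not tested.

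**Figure D5:**
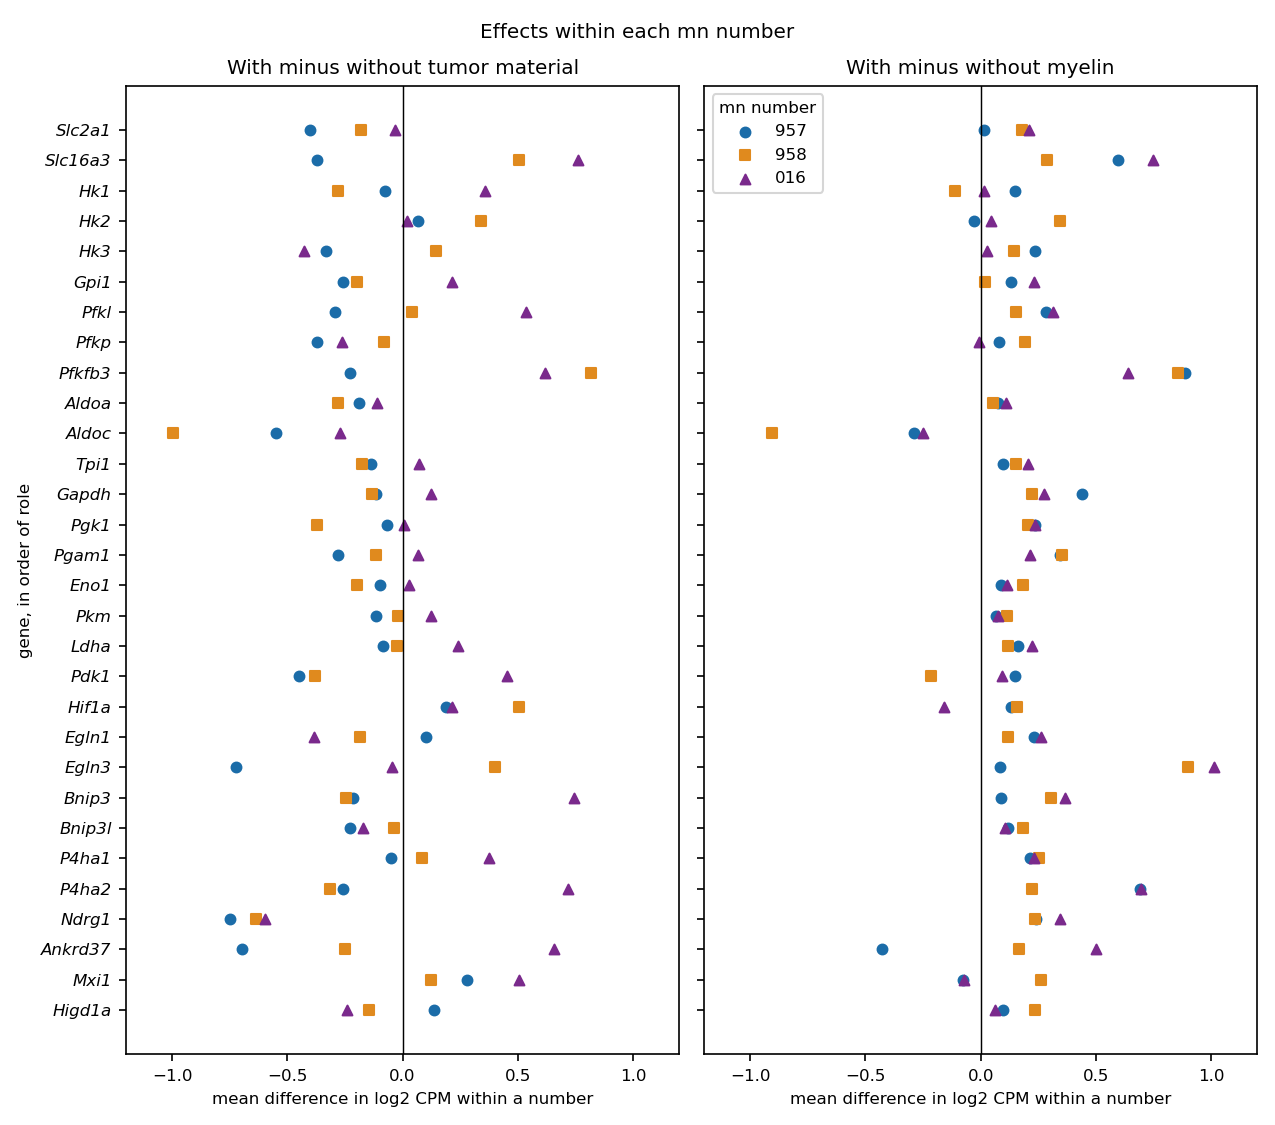
Mean difference in log2 CPM within each mn number, with minus without tumor material (left) and with minus without myelin (right), for 30 members. On the left the 016 triangles lie mostly to the right of the other numbers; on the right most points of all 3 numbers lie above 0.

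Other genes of these pathways, taken from lists written with earlier results of these data known, were examined in the same fits. Of 33 tested further HIF targets, 1 was called with the block, Plod1, a collagen lysyl hydroxylase, and it rose. Over all tested genes, 0.745% were called in Tumor without Myelin and 0.813% in Full Tumor, each against Control. A single call is no result about the list. Plod1 stood at 235, 239 and 175 CPM in Control against 303, 319 and 279 in Myelin Alone. With tumor material it stood at 324, 346 and 388 CPM (Tumor without Myelin) or 355, 362 and 368 CPM (Full Tumor). Every library with tumor material lay above every library without it. The log2 fold change was 0.71 ± 0.12 in Tumor without Myelin (edgeR adjusted p = 0.0244) and 0.75 ± 0.12 in Full Tumor (0.0174), each against Control. The Full Tumor call held in 13 of 20 settings with the block and the Tumor without Myelin call in 11; both were lost when number 957 (0.202 and 0.223) or 958 (0.236 and 0.215) was left out.

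For tumor material pooled, Plod1 was called again (0.49 ± 0.09, edgeR adjusted p = 0.0127), where 2.25% of all tested genes were called. It was the only call of its list, and the lists below also gave 1 call each, which is no result about them. Of 9 pentose phosphate genes, Taldo1, the transaldolase, fell slightly (−0.23 ± 0.05, adjusted p = 0.0308), from 1640 ± 200 CPM in Control and 1670 ± 151 in Myelin Alone to 1390 ± 182 in Tumor without Myelin and 1440 ± 87.3 in Full Tumor (SD, n = 3). Its call held in 9 of 20 settings with the block. Of 8 stress genes that share regulators with Ddit4, the pseudokinase gene Trib3 fell (−1.06 ± 0.20, adjusted p = 0.0171), from 35.3 ± 20.7 and 37.4 ± 8.55 CPM to 15.4 ± 5.48 and 18.3 ± 2.23 CPM in the same order of groups, with a call in 14 of 20 settings.

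No gene was called in the group comparisons with the block among 16 further glycolysis genes, 12 genes of pyruvate entry and its kinases, or 11 HIF regulators, and with group only edgeR called 0 genes of any list. DESeq2 with group only called Plod1 in Tumor without Myelin (adjusted p = 0.00406), Full Tumor (0.0018) and for tumor material pooled (0.00197), and Trib3 for tumor material pooled (0.0123). The tumor difference of Ddit3, a stress transcription factor of the Trib3 list, was lower in 016 than in the other numbers by −1.15 ± 0.22 (edgeR adjusted p = 0.0460), a call made in 4 of 15 settings. Over all tested genes, 0.701% were called for this difference. Between the mn numbers 17 of 33 further HIF targets, 9 of 12 pyruvate genes, 6 of 16 further glycolysis genes, 5 of 9 pentose phosphate genes, 4 of 11 HIF regulators and 3 of 8 stress genes were called in edgeR, beside the 34.9% of all tested genes. The last 2 lists and the further glycolysis genes were thus near that share.

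Macrophage markers were high in every library: all 12 listed were in the table, summing to 14700 to 23400 CPM, with Csf1r at 1170 to 1800 CPM and Adgre1 at 1010 to 2120 CPM. This sum was 19600 to 23400 CPM in Tumor without Myelin and 14700 to 18600 in Control. Neutrophil markers had no shared direction between groups as a sum, with Ly6g at 0 in 11 of 12 libraries. They summed to 39.8, 89.1 and 285 CPM in Control (957, 958, 016). With tumor material the sum was 10.4, 114 and 58.4 CPM (Tumor without Myelin) or 76.9, 90.6 and 16.4 CPM (Full Tumor). Endothelial markers summed to 50.2 to 61 CPM in Control, 41.8 to 56 in Full Tumor and 37.1 to 39.7 in Tumor without Myelin. Of these, Vwf was lower in Tumor without Myelin than in Control in each number. Kdr was higher there in 957 and 958 but lower in 016. The part of all these markers in the lower Ndrg1 level of the tumor groups was not tested. Glioma markers summed to at most 25.3 CPM and those of T, B and NK cells to at most 2.06 CPM.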

How the data were processed

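RNA of 12 libraries was measured by RNA-seq from sorted macrophages, with oligo-dT and template switching used for cDNA according to the protocols in the labels. The authors deposited raw counts per gene, whole numbers that were not normalized; coordinates are on mm10, per the submitters' processing notes. For aligner, counter and use of strand, the answer is not given in the sources used here; reads from overlapping genes, antisense partners or near-identical copies therefore cannot be separated. Every value column matched a sample, and no replicates were duplicates (chi-square per degree of freedom 23.9 to 142 within groups).

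CPM were computed from library totals times TMM factors (0.965 to 1.06). A count of 0 allows up to 3 counts, or 0.138 to 0.176 CPM; this covers counting error only. The main test was edgeR 4.0.16's quasi-likelihood test in R 4.3.3 with filterByExpr, group as the only term and all 12 libraries in a single fit. P-values are two-sided and were adjusted by Benjamini-Hochberg over 13414 genes, with a threshold of 0.05. SEs come from the F statistic. The mn numbers were taken to pair libraries because their libraries deviated together: r exceeded 0.1 in 18 of 18 same-number pairs (0.120 to 0.631 across genes, median 0.329), so the number was also fitted as a block. DESeq2 1.42.0, limma-voom (limma 3.58.1), RLE or library-total scaling, no filter, and leaving out each library or number were alternatives. The procedure was tested on simulated data. Promoters are from RefSeq, exon lengths and 50-base stretches from GENCODE M21 (GRCm38).

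The members, lists and tests were chosen with earlier results of these data known. Genes are described by library where called in a group comparison, then in order of the omnibus p with the block up to 12; for the mn number, the 6 called members of widest range; others serve as examples chosen after their values were seen.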

Additional observations from a re-analysis of the deposited data

How the results depend on the processing

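Without the replicate block, alternatives left the count of called members at 0, except that DESeq2 called 1 (Ndrg1) for tumor material pooled. Adding the replicate block, since the mn numbers pair the libraries, gave 1 called member for Tumor without Myelin against Control and 1 for tumor material pooled, both Ndrg1, and changed no other of the 7 counts. With the block, Full Tumor against Control went from 0 to 3 in DESeq2, 1 in limma-voom and 2 without the filter, and to 0 to 1 when a library or number was left out. Tumor without Myelin against Control gave 0 to 1 when leaving out libraries or numbers. Tumor material pooled went from 1 to 3 in DESeq2, 2 in limma-voom, 2 with library totals, 3 without the filter, and 0 to 2 with libraries or numbers left out. Myelin pooled went from 0 to 2 in DESeq2 (Pfkfb3 and Pgam1). The 25 members called between the mn numbers became 3 to 24 with libraries or numbers left out, 21 with library totals and 26 in DESeq2. The causes were not tested, but leaving out libraries also lowers the power. The shares of all tested genes called in these alternative settings are not given here. The counts therefore describe the settings and are no result about the members. Single genes were followed over the settings only for the members with the lowest omnibus p and for Plod1, Trib3 and Taldo1. The tumor difference by number was followed for Bnip3, Ddit3, Gpi1, Hk1, P4ha2, Pdk1 and Pfkl. Of these 4298 alternative values, by gene, comparison and setting, all but 206 kept their direction, and a called value never changed sign. Most of these genes were picked for low p-values or calls, so this says nothing about the stability of the other members. What limits the number of calls was not tested. With 0 to 29 counts for Ddit4 and 0 to 10 for Adm, depth limits what can be said of these genes.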
